A study of Mus musculus with 12 samples.

Results

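The comparison described here asks whether the effect of losing Piezo1 in the intestinal epithelium differed between injured and uninjured mouse small intestine. It is the genotype by condition interaction: the difference between knockout and floxed tissue in necrotizing enterocolitis (NEC), less the same difference in uninjured tissue. All 12 libraries of the series enter it, 3 in each of 4 groups, and 14808 of the 54532 genes listed were tested, those with an FPKM (read fragments scaled to gene length and library size) of at least 1 in at least 3 libraries. The mice were C57BL/6J, and the groups cross 2 genotypes with 2 conditions. "CKO" marks mice labelled as lacking Piezo1 in intestinal epithelial cells and "flox" marks their floxed controls, each taken without injury (control) or with NEC. The sources used here name neither the Cre driver nor the age. The labels do not tie each library to its own mouse, so the p-values measure only the spread between libraries.

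Piezo1 is a channel in the cell membrane that opens when the membrane is stretched and lets Ca2+ enter. Ca2+ binds calmodulin, which activates kinases such as CaMKII and the phosphatase calcineurin. NEC is an inflammatory necrosis of the newborn bowel, in which the sheet of enterocytes, held together by tight junctions and desmosomes, loses its barrier. An interaction value below 0 means that CKO tissue stood lower relative to flox in NEC than it did in control, and a value above 0 the opposite.

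The libraries held 13057724 to 16821130 reads, recovered from the deposited FPKM values. Control and NEC libraries were deposited in separate tables, each scaled on its own, and each genotype difference lies within a single table, so that a factor shared by a table largely cancels from the interaction, though not in full, because 1 is added before the logarithm. On deposited values, levels in NEC sat 0.12 to 0.17 log2 above a scaling common to all 12 libraries, so changes between control and NEC are given on the common scale, without a test, and FPKM values are compared only within a table. The share of reads from the mitochondrial genome was 12.8% ± 1.62 (SD, n = 3) in flox control, 6.03% ± 0.843 in CKO control, 4.05% ± 0.407 in flox NEC and 4.09% ± 0.538 in CKO NEC. Flox control tissue therefore stood apart from the other 3 groups in this share. CKO NEC replicate 3 lay apart from the other NEC libraries on the first principal component (59.5% of the variance), at 28.1 against 41.4 to 52.3.

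The genotype difference was not the same in the 2 conditions for 181 genes (1.22% of those tested), at a Benjamini-Hochberg adjusted p under 0.05 in limma's moderated test. The interaction was lower than 0 for 150 genes (1.01%) and higher for 31 (0.209%). Their adjusted p-values ran from 0.00507 to 0.0488, so most lay close to the threshold, and 3082 genes (20.8%) had an unadjusted p under 0.05. Among the 150 lower genes, 140 were protein coding. The typical gene was more abundant in CKO than in flox tissue in control and slightly less abundant in NEC. The median difference between genotypes was 0.76 log2 in control and -0.14 in NEC. Among the 31 higher genes, 13 were protein coding, with medians of -0.87 in control and 0.25 in NEC.

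**Figure D1:**
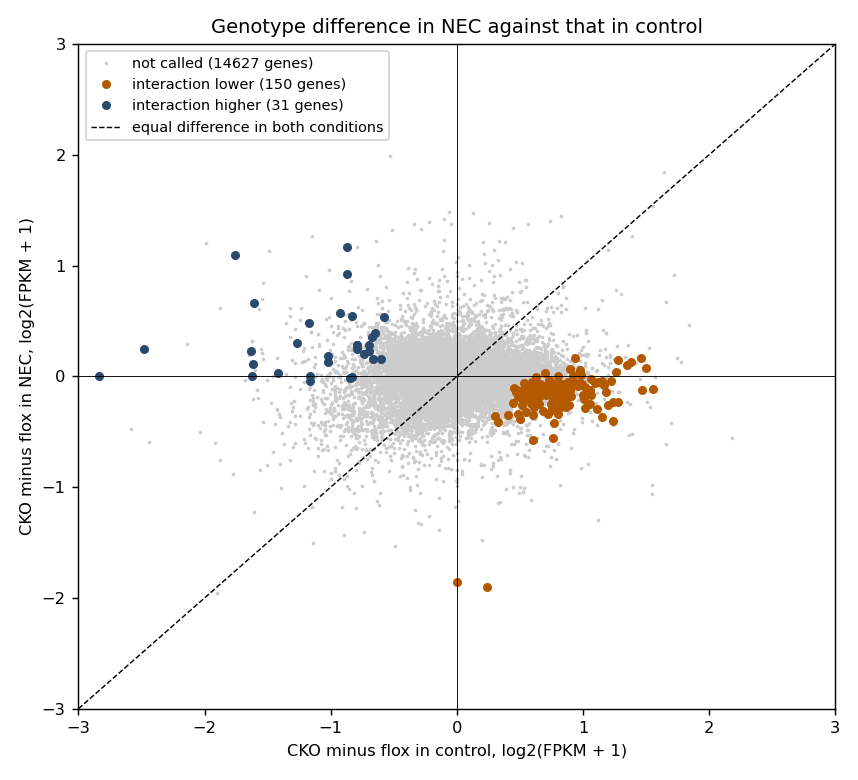
Genotype difference (CKO minus flox) in NEC on the y axis against that in control on the x axis, both as differences of log2(FPKM + 1), 1 point per gene tested. Most of the 150 genes with a lower interaction lie to the right near the horizontal zero line, and most of the 31 with a higher one lie to the left.

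In 146 of the 150 lower genes and 29 of the 31 higher ones the genotype difference in control was larger in size than that in NEC, against 69.9% of all genes tested. The 3 libraries of each genotype did not overlap in control for 148 of the lower genes and in NEC for 57. The differences in control and in NEC had opposite signs in 136 of the lower genes, against 7393 of all 14808 tested. Over all genes tested, CKO lay wholly above flox in control for 20.1% and wholly below it for 12.5%, and in NEC for 4.87% and 5.95%. The interaction is built from these same values, so this describes the called genes and is not a further test. On the common scale, the lower genes had a median change from control to NEC of 1.08 log2 in flox and 0.18 in CKO tissue. Of the 150, 103 stood higher in NEC in both genotypes, as did 5945 of the 14808 genes tested. The higher genes had medians of -1.42 in flox and -0.09 in CKO tissue. Tested alone, limma called 0 of 13673 genes (0%) between genotypes in NEC, with 599 (4.38%) at an unadjusted p under 0.05, and limma-voom, run on the reads, gave 0 as well. In control, limma called 1 of 13300 genes (0.00752%), with 3849 (28.9%) at an unadjusted p under 0.05, and limma-voom called 360. That control count was not stable. It was 760 with a mean FPKM of at least 5 and 903 with the replicate number as a block. With all 12 libraries in 1 fit it was 2051, and with array weights 2200. Without flox control replicate 3 it was 830, and without any 1 of the other 5 libraries it was 0.

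The count of calls changed strongly when any 1 library was left out. Without flox control replicate 3 it was 646, without CKO control replicate 3 it was 307 and without CKO NEC replicate 3 it was 28. Leaving out any of the other 9 libraries left between 0 and 2 genes: 0 without flox control replicate 1, 2 without flox control replicate 2, 1 without CKO control replicate 1, 2 without CKO control replicate 2, 1 without each of the flox NEC replicates, 1 without CKO NEC replicate 1 and 2 without CKO NEC replicate 2. Every one of the 181 genes kept its sign in each of the 25 alternatives in which it was tested. These genes were picked for their values in the same libraries that the alternatives reuse. Kept signs were therefore close to fixed in advance and are not a further test. The scaling mattered for the split between directions. Leaving mitochondrial genes out of the library totals moved the median interaction of all genes from -0.02 to 0.11 and gave 109 higher and 50 lower genes, quantile normalization gave 90 higher and 157 lower, and median-of-ratios scaling gave 22 higher and 93 lower.

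**Figure D2:**
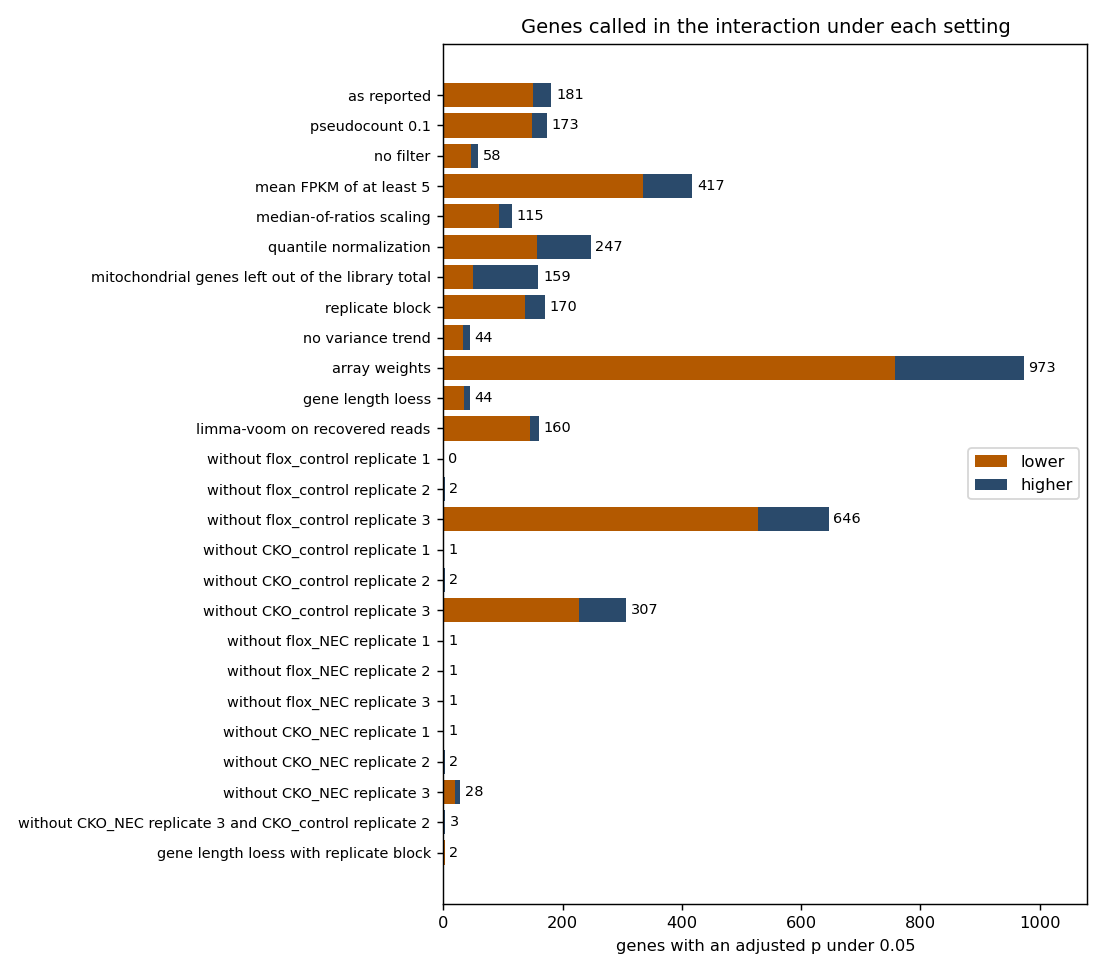
Number of genes with an adjusted p under 0.05 in the interaction under each setting, with lower genes in brown and higher genes in blue stacked along the x axis. The count ran from 0 to 973, against 181 as reported.

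Genes of the epithelial barrier and a regulator of enterocyte identity were among the 150 lower genes. Hnf4g (chromosome 3, 3508030 to 3658052, GRCm38) encodes a nuclear receptor that drives enterocyte genes. Its FPKM was 13.5, 11.9 and 17.1 in the flox control libraries, 40.1, 44.5 and 39.7 in CKO control, 50.6, 58.96 and 43.6 in flox NEC and 52.3, 57.2 and 50.9 in CKO NEC. All CKO control libraries lay above all flox control libraries, and in NEC the genotypes overlapped. The interaction was -1.42 ± 0.20 log2 (SE), with a limma adjusted p of 0.0367, made of 1.50 ± 0.15 in control and 0.07 ± 0.14 in NEC. Of 16 enterocyte transcription factors tested only Hnf4g was called, where 1.22% of all genes were. Nothing is read from the others not passing. The median interaction of the 16 was -0.16, against -0.02 over all genes. With mitochondrial genes left out of the totals it was 0.01, against 0.11 over all genes. Klf5, a regulator of crypt proliferation, had an interaction of -0.38 ± 0.18 and an adjusted p of 0.271.

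Il22ra1 encodes the receptor subunit through which epithelial cells respond to interleukin 22. It stood at 7.43, 10.98 and 12.3 FPKM in flox control, 26.05, 32.5 and 30.4 in CKO control, 32.8, 40.5 and 39.4 in flox NEC and 25.5, 44.3 and 35.4 in CKO NEC. The control groups did not overlap, and the CKO NEC libraries spanned the flox NEC ones. The interaction was -1.59 ± 0.30, with an adjusted p of 0.0441.

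Of 20 tight and adherens junction genes tested, 3 passed the threshold, all lower, and 0 passed in the higher direction, where 1.01% of all genes tested were called lower. The median interaction of the 20 was -0.47, against -0.02 over all genes, and it ran from -0.59 to -0.40 when single libraries were left out. Of the 20, 16 had values below 0, as had 7711 of the 14808 genes tested. Cldn2 (chromosome X, 139800828 to 139811386, GRCm38), a claudin that forms a channel for cations and water, measured 67.6, 84.8 and 93.00 FPKM in flox control, 165, 192 and 158 in CKO control, 135, 162 and 158 in flox NEC and 131, 151 and 165 in CKO NEC. Every flox control library lay below every CKO control library, and the NEC genotypes overlapped. Its interaction was -1.09 ± 0.21 with an adjusted p of 0.0442.

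Ocln (chromosome 13, 100496507 to 100552718, GRCm38) encodes occludin, a membrane protein of the tight junction. Its FPKM was 21.5, 25.9 and 32.03 in flox control, 49.4, 59.2 and 51.2 in CKO control, 36.9, 42.8 and 43.4 in flox NEC and 33.6, 38.7 and 45.6 in CKO NEC. Again the control genotypes did not overlap and the NEC genotypes did. The interaction was -1.06 ± 0.22 with an adjusted p of 0.0485. Tjp1, the scaffold protein ZO-1, differed in another way. It measured 8.63, 9.84 and 9.81 in flox control, 14.1, 14.99 and 11.8 in CKO control, 25.2, 28.1 and 24.6 in flox NEC and 19.9, 22.2 and 19.00 in CKO NEC, so that CKO lay above flox in control and below it in NEC in every library. Its interaction was -0.82 ± 0.16 with an adjusted p of 0.0442. Cdh1, E-cadherin, was like Ocln apart in control and overlapping in NEC, and did not pass, at -0.74 ± 0.22 and an adjusted p of 0.094.

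Among 11 desmosome and epithelial keratin genes, 2 were called, both lower and both desmosomal, beside 1.01% called lower over all genes tested. The median of the list was -0.03, against -0.02 over all genes. With mitochondrial genes left out of the totals it was 0.15, against 0.11 over all genes. It ran from -0.20 to 0.06 without single libraries, so the sign of the list depended on these choices. Dsp encodes desmoplakin, which ties desmosomes to keratin filaments. It measured 19.4, 25.7 and 31.5 FPKM in flox control, 59.8, 65.97 and 48.3 in CKO control, 89.6, 89.5 and 91.5 in flox NEC and 70.8, 89.99 and 97.4 in CKO NEC, and its interaction was -1.25 ± 0.26 with an adjusted p of 0.048. Flox NEC was tight, and the CKO NEC libraries lay on both sides of it.

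Dsg2, a desmosomal cadherin, measured 12.02, 13.7 and 16.2 FPKM in flox control, 25.3, 29.8 and 24.7 in CKO control, 44.6, 46.01 and 43.5 in flox NEC and 36.4, 33.9 and 41.9 in CKO NEC. As with Tjp1, every CKO library lay above flox in control and below flox in NEC. The interaction was -1.14 ± 0.18 with an adjusted p of 0.0367. Dsc2, its partner cadherin, did not pass, at -0.99 ± 0.24 and an adjusted p of 0.0641. The keratins of the list, Krt8, Krt18, Krt19 and Krt20 had interaction values of -0.03, 0.13, 0.30 and -0.27, none past the threshold.

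**Figure D3:**
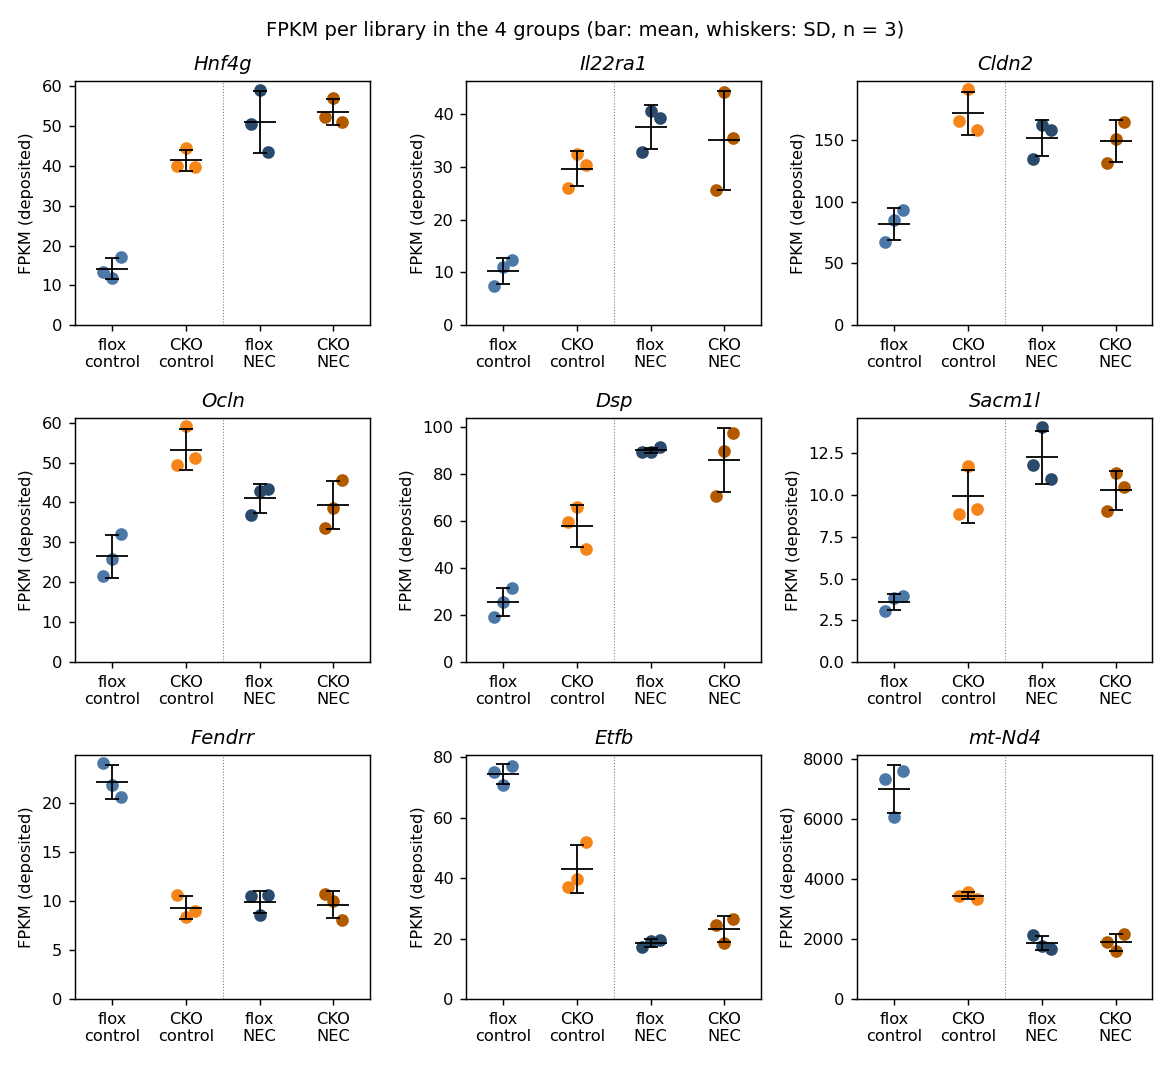
Deposited FPKM (y axis, from 0) of 9 genes in each library of the 4 groups, with the mean and SD of 3 libraries; the dotted line parts the separately scaled control and NEC tables. In the first 6 panels flox control lies below CKO control, and in Fendrr, Etfb and mt-Nd4 it lies above it.

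The other lower genes that the naming rule gives were likewise lower in flox than in CKO control tissue in every library. Cxadr, an adhesion protein found at epithelial junctions, measured 6.43, 9.48 and 9.89 FPKM in flox control, 17.3, 21.9 and 17.1 in CKO control, 22.3, 19.7 and 19.7 in flox NEC and 16.2, 16.5 and 18.8 in CKO NEC. Its groups did not overlap in either condition, with CKO the higher in control and the lower in NEC, and the interaction was -1.30 ± 0.22 (adjusted p 0.0373). Sacm1l, a phosphoinositide phosphatase of the endoplasmic reticulum and Golgi, measured 3.07, 3.82 and 3.95 FPKM in flox control, 8.88, 11.7 and 9.16 in CKO control, 11.8, 14.1 and 10.99 in flox NEC and 9.05, 11.3 and 10.5 in CKO NEC. Its control groups were apart and its NEC groups overlapped, with an interaction of -1.47 ± 0.20 (adjusted p 0.0367).

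Golm1, a Golgi membrane protein, measured 4.08, 5.64 and 6.78 FPKM in flox control and 14.9, 15.7 and 11.6 in CKO control, then 26.3, 28.6 and 30.04 in flox NEC and 26.1, 29.2 and 26.9 in CKO NEC. The genotypes were apart in control and overlapped in NEC, and the interaction was -1.27 ± 0.22 (adjusted p 0.0427). On the common scale it stood higher in NEC in both genotypes, by 2.05 log2 in flox and 0.79 in CKO tissue. A1cf, a cofactor of Apob RNA editing, stood lower in NEC in CKO tissue, with changes of 0.54 in flox and -0.75 in CKO. It measured 9.72, 8.08 and 10.6 FPKM in flox control, 22.8, 22.98 and 15.3 in CKO control, 13.7, 19.1 and 14.7 in flox NEC and 11.1, 12.98 and 14.2 in CKO NEC, and its interaction was -1.30 ± 0.25 (adjusted p 0.0442).

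Timp3, an inhibitor of metalloproteinases made mainly by stromal cells, had the lowest interaction value of the 26 called genes named here, at -1.64 ± 0.35 (adjusted p 0.0488). It measured 2.26, 4.53 and 6.53 FPKM in flox control, 12.1, 11.5 and 9.90 in CKO control, 16.6, 12.5 and 16.4 in flox NEC and 9.86, 12.4 and 11.4 in CKO NEC. The flox control libraries were spread widely but lay below every CKO control library, and in NEC every CKO library lay below every flox library. Fam83b stood at 3.54, 3.10 and 4.07 FPKM in flox control, 9.40, 12.4 and 8.61 in CKO control, 16.3, 20.1 and 17.7 in flox NEC and 12.1, 16.8 and 17.2 in CKO NEC, with an interaction of -1.50 ± 0.23 (adjusted p 0.0367). The interaction was -1.46 ± 0.25 (adjusted p 0.0397) for Pstpip2, a membrane-bending protein of myeloid cells. It was -1.41 ± 0.29 (adjusted p 0.0482) for Garem1, an adaptor of growth factor signalling, and -1.32 ± 0.24 (adjusted p 0.044) for Rnf125, a ubiquitin ligase that restrains RIG-I. Tpm3-rs7, at -1.25 ± 0.22 (adjusted p 0.0439), is a near copy of Tpm3, so its reads may be shared with that gene and its value is uncertain. Each of the 26 called genes that the rule names, in either direction, was called in 1 to 3 of the 12 fits that left out a library.

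The 31 higher genes had the opposite arrangement, with CKO below flox in control, and for 30 of them the control libraries did not overlap. Fendrr (chromosome 8, 121054882 to 121083110, GRCm38), a long noncoding RNA transcribed next to Foxf1 and typical of gut mesenchyme, measured 24.1, 21.8 and 20.6 FPKM in flox control, 10.7, 8.35 and 9.02 in CKO control, 10.5, 8.63 and 10.7 in flox NEC and 10.8, 10.01 and 8.10 in CKO NEC. The flox control libraries lay above the CKO control libraries and the NEC genotypes overlapped, and the interaction was 1.12 ± 0.19 (adjusted p 0.037). Apoc1, an apolipoprotein, measured 5.06, 5.82 and 4.56 FPKM in flox control, 2.24, 2.14 and 2.998 in CKO control, 0.491, 0.651 and 0.577 in flox NEC and 1.36, 1.20 and 1.33 in CKO NEC. CKO lay below flox in control and above it in NEC in every library, and the interaction was 1.38 ± 0.18 (adjusted p 0.0367).

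Etfb, a subunit of the flavoprotein that passes electrons from fatty acid oxidation to the respiratory chain, measured 75.1, 70.8 and 77.2 FPKM in flox control, 37.3, 39.7 and 52.1 in CKO control, 17.3, 19.4 and 19.5 in flox NEC and 24.6, 18.5 and 26.6 in CKO NEC. The control genotypes were apart and the NEC genotypes overlapped, with an interaction of 1.07 ± 0.22 (adjusted p 0.0472). Rpp21, a subunit of ribonuclease P, had an interaction of 1.04 ± 0.22 (adjusted p 0.0482) and Bola2, a protein of iron-sulfur cluster handling, one of 1.11 ± 0.21 (adjusted p 0.0442). Pfdn6, a subunit of the prefoldin chaperone, measured 55.9, 50.5 and 50.1 FPKM in flox control, 36.2, 26.4 and 33.6 in CKO control, 19.2, 23.2 and 20.8 in flox NEC and 28.4, 22.4 and 24.03 in CKO NEC, with an interaction of 0.93 ± 0.19 (adjusted p 0.0482). Fbxl6 had an interaction of 0.93 ± 0.18 (adjusted p 0.0446), Mapk1ip1 one of 0.83 ± 0.14 (adjusted p 0.037) and Rgl2, an exchange factor for Ral, one of 0.75 ± 0.16 (adjusted p 0.0488). Because only 9 higher genes met the naming rule, the next by p are given as values that did not pass, among them Msantd2 at 0.77 and Snhg20 at 1.36.

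All 13 protein-coding genes of the mitochondrial genome had interaction values above 0, with a median of 1.03 against -0.02 over all genes. Of the 13, 0 passed the threshold, where 1.22% of all genes tested did, so nothing is read from the 0. Their lowest limma adjusted p was 0.0641, and 11 had an unadjusted p under 0.05. The median genotype difference was -1.004 in control and 0.05 in NEC. mt-Nd4, a subunit of respiratory complex I, measured 7338, 6078 and 7589 FPKM in flox control, 3450, 3564 and 3354 in CKO control, 2151, 1789 and 1686 in flox NEC and 1900, 1618 and 2190 in CKO NEC. The flox control libraries lay above the CKO control libraries and the NEC genotypes overlapped, with an interaction of 1.03 ± 0.27 (adjusted p 0.0761). mt-Co2, a subunit of cytochrome c oxidase, had an interaction of 1.45 ± 0.36 (adjusted p 0.0641). Over the alternatives other than leaving out single libraries, the value ran from 0.24 to 1.21 for mt-Nd4 and from 1.10 to 1.64 for mt-Co2.

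Nuclear genes for the same machinery did not follow as a group: 11 of 21 were above 0 and the median was 0.04. Of the 21, 0 passed, where 1.22% of all genes did. Cox5b, a nuclear subunit of cytochrome c oxidase, had an interaction of 0.78 ± 0.22 (adjusted p 0.0845), while Sdha, a subunit of succinate dehydrogenase, had one of -0.55 ± 0.19 (adjusted p 0.141). Cytosolic ribosomal protein genes had a median of 0.38 (0.27 to 0.51 without single libraries). In this list 18 of 22 were above 0, as were 7097 of the 14808 genes tested. These genes were short, with a median length of 1800 bases against 3662 over all genes tested. With a trend on gene length removed from each library the list median was 0.24, where that of all genes was 0.01. Of the 22, 0 were called, again beside 1.22% of all genes. Rps18 measured 191, 171 and 162 FPKM in flox control, 113, 134 and 117 in CKO control, 161, 178 and 161 in flox NEC and 230, 167 and 192 in CKO NEC, with an interaction of 0.75 ± 0.20 (adjusted p 0.0758). Its CKO libraries were all lower than flox in control and not separate in NEC. Ribosomal protein genes have many near-identical copies in the genome, so their values are uncertain.

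**Figure D4:**
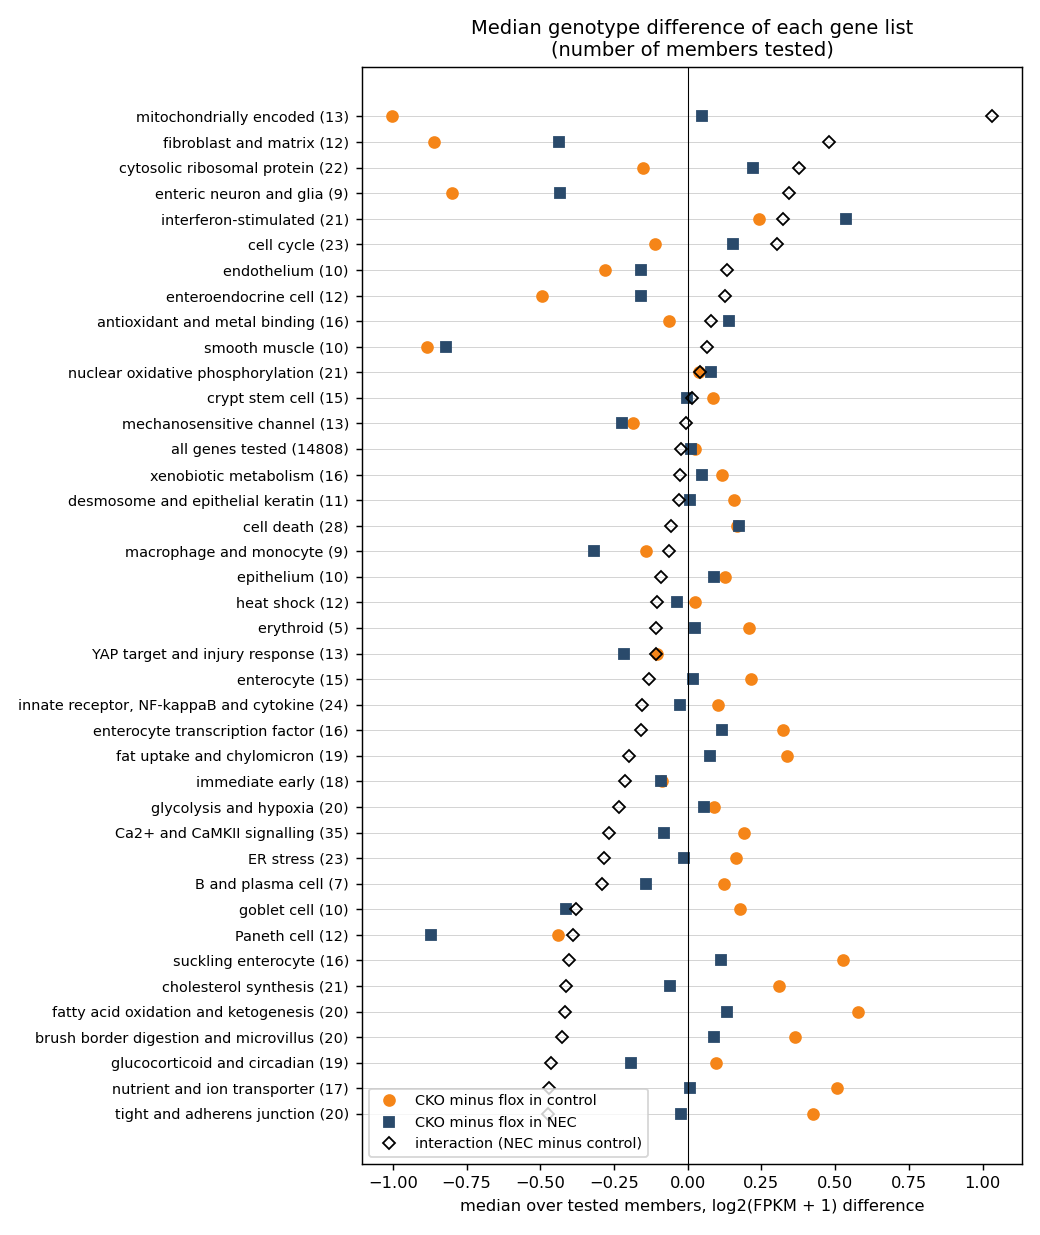
Median over the tested members of each gene list with at least 5 of them of the genotype difference in control (orange circles), in NEC (blue squares) and of the interaction (open diamonds), on the x axis as differences of log2(FPKM + 1). Among these lists the mitochondrially encoded genes lie highest at 1.03 and the tight and adherens junction genes lowest at -0.47, as reported and before any library is left out.

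The lists for enterocyte metabolism and absorption had medians below that of all genes, with 0 members called in each where 1.22% of all genes were. How far below rested in part on single libraries. Fatty acid oxidation and ketogenesis had a median of -0.42 (-0.59 to -0.30 without single libraries), with 19 of 20 members below 0. Hadha, a subunit of the mitochondrial trifunctional protein, measured 22.00, 27.6 and 31.5 FPKM in flox control, 49.2, 46.2 and 54.3 in CKO control, 55.2, 64.6 and 57.97 in flox NEC and 62.1, 52.7 and 77.1 in CKO NEC. Only the control genotypes were apart, and the interaction was -0.78 ± 0.23 (adjusted p 0.0941). Etfdh, which takes electrons from the flavoprotein that Etfb belongs to, had an interaction of -0.58 ± 0.18 (adjusted p 0.103), and Plin2, a lipid droplet coat protein, one of -0.68 ± 0.24 (adjusted p 0.135).

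Fat uptake and chylomicron genes had a median of -0.20, with 12 of 19 below 0. It was -0.36 without flox control replicate 2, -0.33 without flox NEC replicate 1, -0.12 without flox NEC replicate 2 and -0.03 without flox control replicate 3. With mitochondrial genes left out of the totals it was -0.05, where the median of all genes was 0.11. Apob, the structural protein of chylomicrons, measured 129, 198 and 170 FPKM in flox control, 287, 361 and 332 in CKO control, 251, 333 and 220 in flox NEC and 172, 291 and 273 in CKO NEC, with an interaction of -1.13 ± 0.33 (adjusted p 0.0947). Mttp, which loads lipid onto Apob, had one of -0.97 ± 0.33 (adjusted p 0.13). Both were higher in every CKO than every flox library in control and overlapped in NEC. Cholesterol synthesis genes had a median of -0.41, with 19 of 21 below 0. It was -0.77 without CKO control replicate 3, -0.19 without CKO control replicate 1 and -0.09 without CKO control replicate 2.

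Nutrient and ion transporters had a median of -0.47 (-0.69 to -0.30 without single libraries, the latter without CKO control replicate 2), with 14 of 17 below 0. Slc3a1, the subunit that carries the transporter of dibasic amino acids to the brush border, had an interaction of -1.19 ± 0.33 (adjusted p 0.0856). Brush border genes had a median of -0.43, with 17 of 20 below 0. It was -0.70 without flox control replicate 3, -0.26 without CKO NEC replicate 1 and -0.25 without CKO control replicate 3. Mgam, a starch-digesting enzyme, measured 40.98, 40.6 and 56.2 FPKM in flox control, 75.3, 79.5 and 59.1 in CKO control, 218, 276 and 264 in flox NEC and 237, 190 and 223 in CKO NEC. On the common scale it was higher in NEC than in control, by 2.29 log2 in flox and 1.45 in CKO tissue, and its interaction was -0.85 ± 0.24 (adjusted p 0.0879). Genes of the suckling enterocyte had a median of -0.40, with 12 of 16 below 0, among them Cps1, the first enzyme of the urea cycle, at -1.07 ± 0.25 (adjusted p 0.0594). Their median was -0.68 without CKO NEC replicate 3, -0.62 without flox control replicate 2 and -0.04 without CKO NEC replicate 1.

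Piezo1 itself measured 1.38, 1.44 and 1.09 FPKM in flox control, 1.71, 1.03 and 0.926 in CKO control, 7.38, 7.23 and 6.76 in flox NEC and 5.38, 5.58 and 3.23 in CKO NEC. The control genotypes overlapped, and in NEC every CKO library lay below every flox library. The genotype difference was -0.06 ± 0.19 in control and -0.53 ± 0.18 in NEC, and the interaction was -0.46 ± 0.25, with an adjusted p of 0.325, so the change of the genotype difference between conditions did not pass. The knockout is labelled as restricted to epithelial cells, and whole tissue can also hold Piezo1 from other cells. The part of other cells in these Piezo1 values was not tested. In bulk tissue, fewer cells of a type and less RNA per cell cannot be told apart, for Piezo1 and for every gene named above or below.

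The kinase genes that the study's title points to did not pass either. Camk2b had an interaction of -0.00 ± 0.35 and changed sign between settings, Camk2d one of -0.28 ± 0.23 and Camk2g one of 0.11 ± 0.23, with adjusted p-values of 0.997, 0.528 and 0.838. Camk2a was below the filter and was not tested. Over the whole list of Ca2+ and CaMKII signalling, 0 of 35 genes were called, where 1.22% of all genes tested were. In this list 30 of 35 had values below 0, as had 7711 of all 14808, and the median was -0.27 (-0.33 to -0.23 without single libraries). The members with the smallest p were Ppp3r1, the regulatory subunit of calcineurin, Stim2, a Ca2+ sensor of the endoplasmic reticulum, and Nfatc3, a transcription factor that calcineurin activates. Ppp3r1 measured 16.7, 21.1 and 25.7 FPKM in flox control, 31.3, 37.03 and 40.6 in CKO control, 38.1, 36.5 and 34.96 in flox NEC and 33.7, 32.4 and 40.9 in CKO NEC, apart in control and overlapping in NEC. The interaction was -0.80 ± 0.22 for Ppp3r1, -0.56 ± 0.15 for Stim2 and -0.55 ± 0.15 for Nfatc3, with adjusted p-values of 0.0831, 0.084 and 0.0864. The genes of this list were long, with a median length of 7433 bases against 3662 over all genes tested. The median interaction of the list was -0.11 once length was fitted out, where that of all genes was 0.01. With mitochondrial genes left out of the totals it was -0.13, where that of all genes was 0.11.

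Mechanosensitive channel genes had a median near 0, with 6 of 13 above and 0 called, where 1.22% of all genes were called. Kcnk5, a potassium channel, had an interaction of -0.68 ± 0.27 (adjusted p 0.176).

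Inflammatory and death genes gave 0 calls in each list. Over all genes 1.22% were called, and nothing is read from the 0. The innate receptor, NF-kappaB and cytokine list had 24 tested members, 13 of them below 0, and a median of -0.16. It was -0.27 without flox control replicate 3, -0.08 without CKO NEC replicate 1 and -0.06 without flox control replicate 2. Traf6, an adaptor of Toll-like receptor signalling, measured 2.87, 3.28 and 3.94 FPKM in flox control, 5.13, 6.15 and 5.50 in CKO control, 13.5, 12.5 and 12.9 in flox NEC and 11.8, 12.1 and 12.3 in CKO NEC. Its genotypes were apart in both conditions, in opposite directions, and it came just outside the threshold at -0.69 ± 0.15 (adjusted p 0.0505). Interferon-stimulated genes had a median of 0.32 with 15 of 21 above 0, but the median was -0.09 without CKO NEC replicate 2, 0.21 without flox NEC replicate 1 and 0.59 without CKO NEC replicate 1. Isg15, the ubiquitin-like product of that response, was at its highest NEC level in that library: it measured 0.870, 1.37 and 0.379 FPKM in flox NEC and 0.785, 10.2 and 1.49 in CKO NEC, and 77.5, 51.6 and 64.7 in flox control and 38.2, 35.5 and 50.8 in CKO control. Its interaction was 1.63 ± 0.75 (adjusted p 0.241).

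Among 28 cell death genes the median was -0.06, which changed sign between settings, and the members with the smallest p stood on both sides of 0. Bax, a pore-forming trigger of apoptosis, measured 93.6, 68.2 and 95.3 FPKM in flox control, 39.8, 43.6 and 57.8 in CKO control, 22.3, 28.5 and 32.3 in flox NEC and 31.5, 32.3 and 36.7 in CKO NEC, with an interaction of 1.13 ± 0.26 (adjusted p 0.0594). Pycard, the inflammasome adaptor ASC, had one of 0.83 ± 0.20 (adjusted p 0.0641). Casp9, the initiator caspase of the mitochondrial pathway, had one of -0.64 ± 0.17 (adjusted p 0.0749). The first 2 stood above 0 and the last below it, and none passed.

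In each list of this paragraph 0 members were called, where 1.22% of all genes were, and nothing is read from the 0. Genes of endoplasmic reticulum stress had a median of -0.29, with 16 of 23 below 0. It was -0.16 without CKO NEC replicate 3, -0.14 without flox NEC replicate 3 and -0.12 without flox control replicate 2. Atf6, a sensor of that stress, had an interaction of -0.82 ± 0.18 (adjusted p 0.0563), Canx, a folding chaperone, one of -0.97 ± 0.23 (adjusted p 0.0636) and Dnajc3 one of -0.71 ± 0.18 (adjusted p 0.0654). Glucocorticoid and circadian genes had a median of -0.46, with 13 of 19 below 0 and 0 called, and it was -0.28 without CKO NEC replicate 3 and -0.17 without CKO control replicate 3. Clock, a core factor of the circadian oscillator, measured 3.53, 3.78 and 3.65 FPKM in flox control, 4.61, 5.23 and 4.91 in CKO control, 7.81, 7.88 and 7.55 in flox NEC and 6.68, 6.81 and 6.35 in CKO NEC, with CKO above flox in control and below it in NEC in every library. It lay just outside the threshold, at -0.55 ± 0.12 (adjusted p 0.0503), and Bhlhe40, another clock regulator, was at -0.81 ± 0.21 (adjusted p 0.0762). Over the alternatives other than leaving out single libraries, Clock ran from -0.64 to -0.28. With length fitted out, the median of the glucocorticoid and circadian list was -0.28, where that of all genes was 0.01. Immediate early genes had a median of -0.21 (-0.37 to -0.03 without single libraries, the extremes without flox NEC replicates 1 and 3), with Klf6 at -1.07 ± 0.24 (adjusted p 0.0574). Cell cycle genes had a median of 0.30 with 18 of 23 above 0, and it was -0.01 without CKO control replicate 3 and 0.61 without flox control replicate 3.

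Markers of other cell types were counted beside these results, and 0 of them were called, where 1.22% of all genes tested were. Nothing is read from the 0. Smooth muscle markers summed to 1172 to 1480 FPKM in flox control and 320.2 to 998.9 in CKO control, and to 2597 to 4160 in flox NEC and 790.3 to 3103 in CKO NEC. CKO tissue thus held less of them than flox in control, with some overlap in NEC. In each condition 1 CKO library lay far below the others. CKO control replicate 2 summed to 320.2, against 998.9 and 897.1 in replicates 1 and 3. CKO NEC replicate 3 summed to 790.3, against 3103 and 2497 in replicates 1 and 2. The median genotype difference of the smooth muscle markers was -0.88 in control and -0.82 in NEC, and both rest in part on these libraries. The median interaction of the 10 markers was 0.06, from -0.40 to 0.55 when single libraries were left out. Fibroblast and matrix markers had medians of -0.86 in control and -0.44 in NEC and an interaction median of 0.48, with 10 of 12 above 0. It was 0.15 without CKO control replicate 2 and 0.74 without CKO control replicate 1. Their summed level was 360.0 to 566.3 FPKM in flox control, 139.7 to 354.8 in CKO control, 906.8 to 1210 in flox NEC and 586.0 to 978.7 in CKO NEC. Enteric neuron and glia markers had an interaction median of 0.34, with 8 of 9 above 0. It was 0.11 without CKO control replicate 2, 0.12 without CKO NEC replicate 1, 0.22 without flox NEC replicate 2, 0.55 without CKO control replicate 3 and 0.64 without CKO NEC replicate 3. Endothelial markers had one of 0.13, with 7 of 10 above 0, which ran from just below 0 without CKO NEC replicate 1 to 0.30 without flox control replicate 3.

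Epithelial markers summed to 3649 to 4870 FPKM in flox control, 4294 to 5276 in CKO control, 3648 to 4321 in flox NEC and 3812 to 4927 in CKO NEC, with overlap between genotypes in both conditions. Their median interaction was -0.09, with 6 of 10 below 0. With mitochondrial genes left out of the totals it was 0.09, where the median of all genes was 0.11. Epithelial markers were thus present at high levels in every library of the labelled tissue. Paneth cell markers had a median of -0.39, with 9 of 12 below 0, but their summed level ran from 9.72 to 101 FPKM within CKO control and from 16.5 to 180 within flox control, and the median changed sign without single libraries. Goblet cell markers had a median of -0.38, with 7 of 10 below 0. It was -0.66 without CKO NEC replicate 2, -0.62 without CKO control replicate 2, -0.24 without CKO control replicate 3, -0.23 without CKO NEC replicate 1 and -0.17 without flox NEC replicate 3. Among enteroendocrine markers Chgb, a secretory granule protein, had an interaction of -0.98 ± 0.29 (adjusted p 0.0947). Macrophage and monocyte markers summed to 136 to 150.1 FPKM in flox control, 130 to 146 in CKO control, 70.7 to 83.9 in flox NEC and 55.5 to 74.8 in CKO NEC. Of the 9 tested, 0 were called, where 1.22% of all genes were. Neutrophil markers were low, at 4.59 to 10.9 FPKM in flox control, 5.66 to 8.90 in CKO control, 14.3 to 15.9 in flox NEC and 6.98 to 11.4 in CKO NEC. Only 3 of 10 neutrophil and 2 of 10 T and cytotoxic lymphocyte markers were abundant enough to test. The goblet marker Retnlb and the pancreatic marker Cela2a were listed at 0 in all 12 libraries. The part of smooth muscle, stroma and other cell types in the called genes was not tested.

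Gene length moved with the interaction. Among protein-coding genes split by length into 5 classes of like size, the median interaction ran from 0.22 in the shortest class (27 to 2352 bases) through 0.02, -0.05 and -0.12 to -0.22 in the longest (7340 to 41324 bases). The lower calls numbered 7, 9, 20, 37 and 67 from the shortest to the longest class, and the higher calls 8, 1, 3, 1 and 0. Called lower genes had a median length of 6976 bases and called higher genes one of 511, against 3662 over all genes tested. The median of the longest class less that of the shortest, relative to the mean of all libraries, was -0.46, -0.39 and -0.47 log2 in flox control. It was -0.17, -0.09 and -0.33 in CKO control, 0.47, 0.35 and 0.38 in flox NEC and 0.18, 0.35 and 0.14 in CKO NEC. Flox control libraries were thus the most tilted toward short genes. With a smooth trend on length removed from each library, 44 genes were called, 43 of them among the 181, and with mitochondrial genes left out of the library totals 80 of the 181 were still called. The sizes moved less than the calls. The median interaction of the 150 lower genes was -0.91 as reported, -0.81 with the length trend removed and -0.75 with mitochondrial genes left out, and that of the 31 higher genes 1.16, 1.12 and 1.29.

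**Figure D5:**
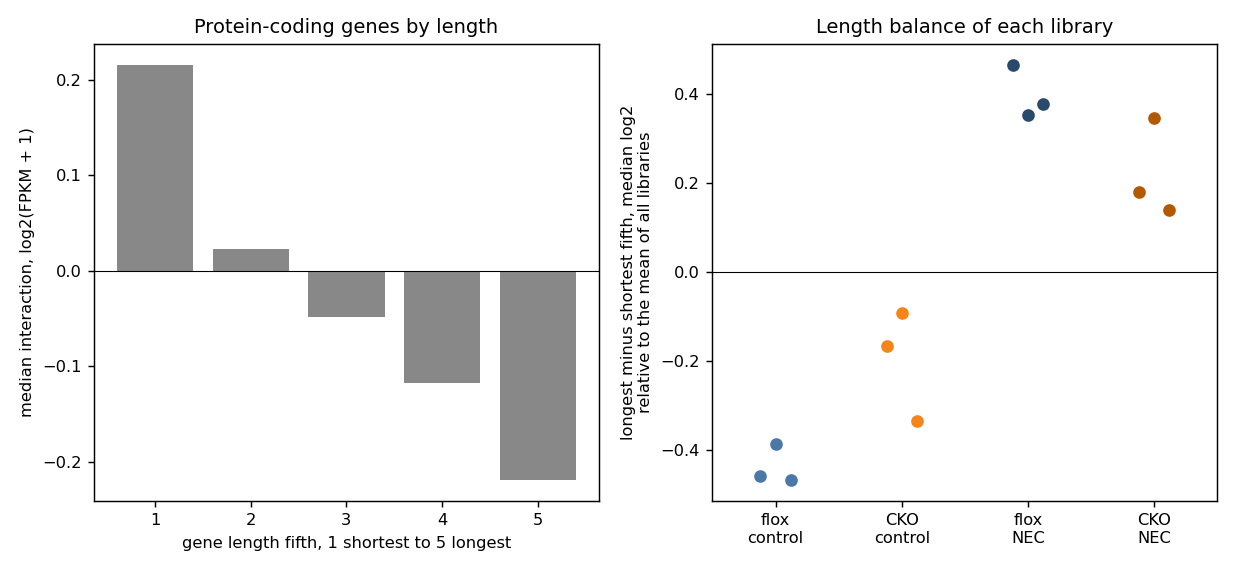
Left, median interaction (y axis, log2) of protein-coding genes in 5 classes of length. Right, for each library of the 4 groups, the median of the longest class less that of the shortest, relative to the mean of all libraries; flox control libraries lie between -0.47 and -0.39.

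The promoters of the called genes were searched for 2 motifs of intestinal transcription factors, on both strands of the 250 bases before the start of RefSeq genes (GRCm38.p6), which could be matched for 108 of the 150 lower genes. The HNF4 motif CAAAGTCCA was found in 0 of 123 promoters of the lower genes, against 0.417% of promoters of all genes tested. The CDX2 motif TTTATGG was found in 1 of the 123, that of Crim1, which was picked out after its values were seen, against 1.65%. Of the 15 promoters matched to 11 of the 31 higher genes, 1 held the HNF4 motif and 0 the CDX2 motif. A match of letters is a description and not a site, and its absence says only that these letters are not in this window.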

How the data were processed

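RNA from small intestine was isolated with Trizol and made into libraries with a NEBNext Ultra II kit, per the labels' protocols. The authors deposited FPKM values and gene lengths in 2 tables of 6 libraries. For the aligner, counter, build and use of strand, the sources used here say nothing, so reads of overlapping or antisense genes cannot be told apart. Gene coordinates in the deposited tables were identical to GENCODE M21 (GRCm38) for 53585 of 54495 matched genes (98.3%). FPKM times gene length was a whole multiple of a library's step, within 0.05, for 100% of the values checked. The check left out genes with the highest read numbers. Dividing by the step gave back reads per gene.

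FPKM plus 1 was put on the log2 scale, and fold differences are on that scale, which understates changes of genes at low FPKM. limma 3.58.1 in R 4.3.3 fitted the 4 group means with a mean-variance trend to genes that reached an FPKM of 1 in 3 or more libraries, with Benjamini-Hochberg adjustment at 0.05. Each condition alone was fitted to its 6 libraries. The fit was tested on simulated data in which genes varied independently. That test therefore does not bear on deviations shared by many genes of a library. NEC was set against control only on values rescaled by median-of-ratios factors. Named genes were Piezo1, the Camk2 genes, the 12 highest and 12 lowest called genes with a mean FPKM of at least 5 in a group (predicted genes, pseudogenes and sex-linked markers left out), and up to 3 members of each of 45 lists with the smallest p. A few of these genes are not reported here. Members, lists and tests were chosen with earlier results of these data known. Alternatives covered the pseudocount, filters, scalings, variance model, replicate block, gene length, limma-voom and leaving out each library. Other work used Python 3.11.15, numpy 2.4.6, pandas 2.3.3 and matplotlib 3.10.9.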

Additional observations from a re-analysis of the deposited data

Results flagged for a closer look

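The genotype difference in NEC differed from that in control, by the interaction test, for 181 genes. Among those named, the difference of the 2 differences was above 0 for Apoc1 (1.38), Fendrr (1.12), Bola2 (1.11), Etfb (1.07), Rpp21 (1.04), Fbxl6 (0.93), Pfdn6 (0.93), Mapk1ip1 (0.83) and Rgl2 (0.75), all in log2 units. It was below 0 for Timp3 (-1.64), Il22ra1 (-1.59), Fam83b (-1.50), Sacm1l (-1.47), Pstpip2 (-1.46), Hnf4g (-1.42), Garem1 (-1.41), Rnf125 (-1.32), Cxadr (-1.30), A1cf (-1.30), Golm1 (-1.27) and Tpm3-rs7 (-1.25). Among junction and desmosome genes it was below 0 for Tjp1 (-0.82), Cldn2 (-1.09), Ocln (-1.06), Dsg2 (-1.14) and Dsp (-1.25). Groups of 3 libraries are too small for a test of single outlying libraries.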

How the results depend on the processing

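The number of genes called in the interaction, 181 (31 higher, 150 lower), was 58 (11 and 47) with no filter, 417 (83 and 334) with a mean FPKM of at least 5, 115 with median-of-ratios scaling (93 lower), 44 (11 and 33) with no variance trend, 973 (216 and 757) with array weights and 44 (10 and 34) with gene length fitted out. Higher calls were 90 with quantile normalization, 109 with mitochondrial genes left out (50 lower) and 14 with limma-voom. Leaving out 1 library gave 0 to 646 calls (0 to 119 higher, 0 to 527 lower). After seeing the data 2 alternatives were added: without CKO NEC replicate 3 and CKO control replicate 2 together it was 3 (2 and 1), and with length and the replicate block it was 2 (0 and 2). In NEC alone, calls ran from 0 to 1 over the fits without a library. In control alone, calls were 0 with no filter, 760 with the stricter filter, 2200 with array weights, 0 with length fitted out, 360 with limma-voom, 2051 with all 12 libraries in 1 fit and 0 to 830 without a library. Same-numbered libraries did not all deviate together (7 of 18 pairs correlated above 0.1, and 14 of 36 comparisons were best with their own number). The highest correlation, 0.356, was between flox control replicate 3 and CKO control replicate 3. These 2 libraries also stood apart on the third principal component (7.01% of the variance), at 35.2 and 23.0. The next highest was flox NEC replicate 3 at 3.71. With the replicate number as a block, 170 genes were called in the interaction (34 higher, 136 lower), 0 in NEC and 903 in control. The causes of these shifts were not tested. The 26 called genes named kept their direction in every alternative that tested them. The alternatives reuse the libraries these genes were picked from, so this is not a further test. Camk2b, near 0, turned to 0.0043 with a pseudocount of 0.1, 0.0037 with median-of-ratios scaling, 0.13 with mitochondrial genes left out, 0.12 with array weights, 0.20 with length fitted out, with or without the block, 0.015 with limma-voom and -0.25 to 0.34 without a library (-0.28 without CKO NEC replicate 3 and CKO control replicate 2). Camk2d turned to 0.036 with length fitted out, with or without the block, and Camk2g ran from -0.014 to 0.31 without a library. The called interaction nearest to 0 was -0.56 log2, on a median standard error of 0.23 over all genes and 3 libraries a group.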
